A study of Homo sapiens with 8 samples.

Results

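Aminoacyl-tRNA synthetases, the enzymes that join each amino acid to its tRNA, were followed in RNA captured with biotinylated miR-23b or miR-27a from the human embryonic kidney line HEK293T. Members were the genes whose symbols have the form of a synthetase gene (a letter for the amino acid, then ARS and 1 or 2, or the older spelling), together with EPRS1, FARSA, FARSB and the complex scaffolds AIMP1, AIMP2 and EEF1E1. The probe annotation named 34 of the 40 genes of that list, out of 9535 named genes in all: 18 cytosolic enzymes or subunits and 16 mitochondrial enzymes. The other genes of the list, the 3 scaffolds among them, were not analysed here. The arrays (Illumina) fell into 4 groups of 2, and all 8 arrays came from cells given 200 pmol of a synthetic biotin-labelled duplex with HiPerFect reagent and collected after 24 h. The miR-23b pull-down and the miR-27a pull-down were the RNA recovered on streptavidin beads, and the miR-23b input and the miR-27a input were labelled as without pull-down. A pull-down with a control duplex was not analysed here. Whether replicates 1 and 2 came from separate cultures is not stated in the labels, and the p-values therefore reflect array-to-array spread that may be technical.

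Each synthetase charges its own tRNA with the matching amino acid, and most amino acids have a pair of nuclear genes, the first for the cytosolic enzyme and the second for the mitochondrial one. KARS1 and GARS1 serve both compartments through alternative products and are counted as cytosolic here. EPRS1 carries the glutamate and proline activities in 1 chain. In animal cells several cytosolic enzymes are bound in the multisynthetase complex around the AIMP scaffolds. The cytosolic enzymes outside that complex are called free here, whether or not they bind other proteins. Many cytosolic synthetase genes are induced by the transcription factor ATF4 when amino acids run short. A miRNA loaded in an Argonaute protein pairs with mRNAs mainly through its seed, bases 2 to 8 from the 5′ end.

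The mature miRNAs are shown because they are the captured molecules and carry the seeds. Sequences are those of RefSeq on assembly GRCh38.p14, with the seed in capitals, and the 3p arm is shown as the usual mature form since the labels do not give the arm.
hsa-miR-23b-3p: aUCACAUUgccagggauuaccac
hsa-miR-27a-3p: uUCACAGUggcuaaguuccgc
The first lies at chr9:95085265-95085287 on the plus strand and has 23 bases, and the second at chr19:13836447-13836467 on the minus strand and has 21. Their seeds were identical at 6 of 7 bases and differed by U7G, with the base of miR-23b first and positions counted from the 5′ end.

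Input arrays correlated with each other across probes at 0.979 to 0.996 over 6 pairs, pull-down arrays at 0.955 to 0.984 over 6 pairs, and pull-down with input arrays at 0.916 to 0.951 over 16 pairs. All 7 genes listed as expressed in HEK293 cells had a probe, and in the inputs they ranked between 293 (VIM) and 8142 (IGF2BP1) of 9535 genes by probe brightness, which does not order transcripts by abundance. Of 11 markers of blood cells and hepatocytes, CD14 (rank 9045) and ALB (rank 7058) had a probe. Values are on the scale of the deposited table, read as log2, and a log2 change is the mean of the pull-downs minus the mean of their inputs, given with its moderated standard error (SE). The array medians lay between 9.09 and 9.12, so that a change gives the share of a gene among the RNA on its array. Capture of a transcript and loss of others from the pull-down cannot be told apart, nor, in bulk RNA, fewer cells with a transcript and less of it per cell.

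Synthetase genes changed in both directions in both pull-downs, and most did not pass the test. With miR-23b, 4 of the 34 rose (TARS1, FARSB, NARS1 and IARS2), 4 fell (KARS1, YARS1, YARS2 and SARS2) and 26 did not pass (limma, adjusted p under 0.05). That is 23.5% of the genes, against 24.3% of all genes called in the same comparison (13.4% higher and 10.9% lower). With miR-27a, 3 rose (TARS1, FARSB and IARS2), 5 fell (KARS1, YARS1, QARS1, YARS2 and SARS2) and 26 did not pass, again 23.5%, against 34.5% of all genes (18.5% higher and 16.1% lower). Same-numbered arrays shifted together, and a fit with the replicate number as a block called 15 genes in each pull-down. With miR-23b these were 9 higher and 6 lower (44.1%), where that fit called 44.7% of all genes (24.5% higher and 20.2% lower). With miR-27a they were 4 higher and 11 lower (44.1%), against 53.4% of all genes (26.4% higher and 27.0% lower). Leaving out single arrays moved the count as well. For miR-23b it was 2 without its input replicate 2, 4 without its pull-down replicate 1 and 5 without its input replicate 1. For miR-27a it was 3 without its pull-down replicate 2, 4 without its input replicate 2 and 5 without its pull-down replicate 1.

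**Figure D1:**
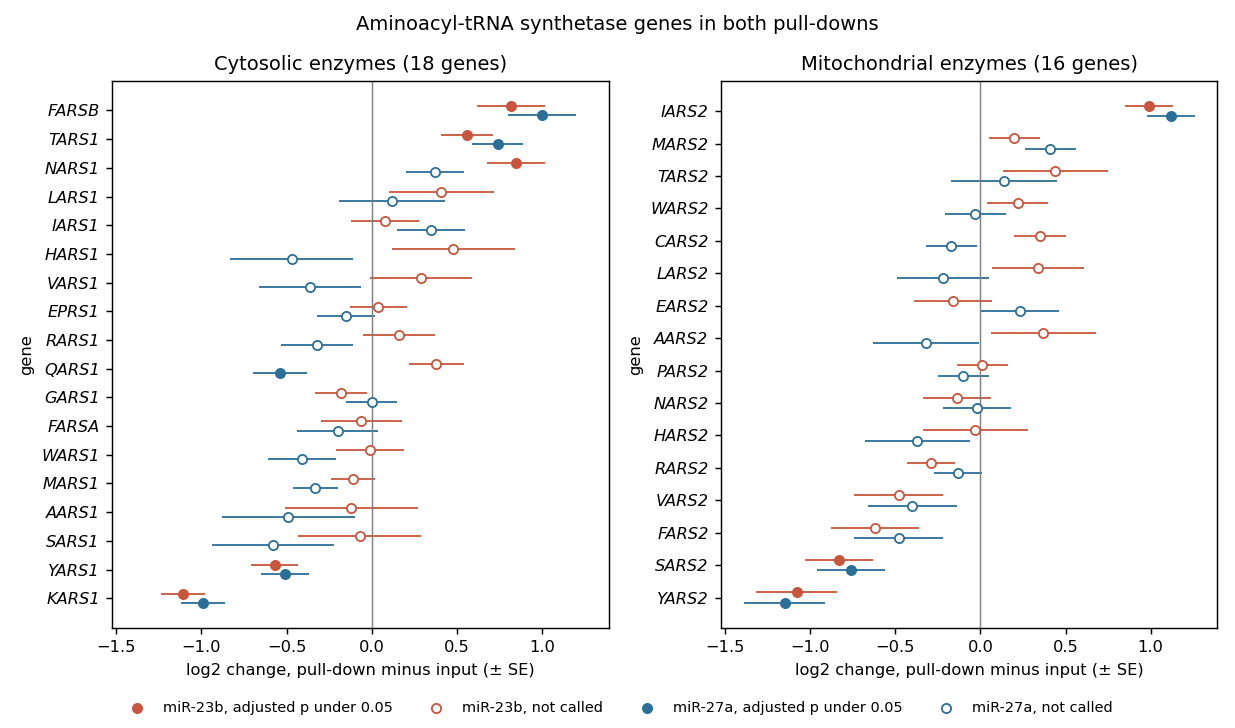
Log2 change of each of the 34 synthetase genes, pull-down minus input, with bars of 1 SE on the horizontal axis and genes on the vertical axis, by class and miRNA, with filled points for called genes and open points for the others. Called genes lie on both sides of 0 in both classes, from KARS1 and YARS2 at the low end to IARS2, FARSB and NARS1 at the high end.

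KARS1, the lysyl-tRNA synthetase of both compartments and an enzyme of the multisynthetase complex, fell in both pull-downs. It read 9.45 and 9.29 in the miR-23b pull-downs and 10.44 and 10.53 in their inputs. With miR-27a it read 9.36 and 9.39 in the pull-downs and 10.31 and 10.41 in the inputs. All 4 pull-down values lay below all 4 inputs, by more than any spread between replicates. The log2 change was -1.11 ± 0.13 SE with miR-23b, an apparent fall of 2.17-fold (limma, adjusted p = 0.0026), and -0.99 ± 0.13 with miR-27a, 1.98-fold (limma, adjusted p = 0.0018). KARS1 and IARS2 were the genes that kept their calls in both pull-downs when any single array was left out.

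Both tyrosyl-tRNA synthetase genes fell in both captures. YARS2, the mitochondrial enzyme, read 9.58 and 9.86 in the miR-23b pull-downs against 10.49 and 11.12 in the inputs. It read 9.57 and 9.84 in the miR-27a pull-downs against 10.66 and 11.05. Pull-downs lay below inputs without overlap, and replicate 2 was the higher of the pair in every group. The log2 changes of YARS2 were -1.08 ± 0.24 (2.12-fold, limma, adjusted p = 0.017) and -1.15 ± 0.24 (2.22-fold, adjusted p = 0.0095). YARS1, the cytosolic enzyme, read 11.31 and 11.50 against 11.88 and 12.07 with miR-23b, and 11.49 and 11.66 against 12.11 and 12.06 with miR-27a. Its groups did not overlap either, and the changes were smaller, at -0.57 ± 0.14 (1.49-fold, limma, adjusted p = 0.025) and -0.51 ± 0.14 (1.42-fold, adjusted p = 0.028). The YARS2 calls were lost without the first pull-down or the second input of the miRNA concerned (adjusted p up to 0.089 with miR-23b and 0.061 with miR-27a). The YARS1 call was lost with miR-23b without pull-down replicate 1 or either input, and with miR-27a without any of its 4 arrays (adjusted p up to 0.14 in both).

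SARS2, the mitochondrial seryl-tRNA synthetase, also fell in both. Its values were 9.55 and 9.98 in the miR-23b pull-downs and 10.41 and 10.78 in the inputs. With miR-27a they were 9.85 and 9.99 in the pull-downs and 10.53 and 10.84 in the inputs. The lower input lay above the higher pull-down for each miRNA. The log2 changes were -0.83 ± 0.20 (1.77-fold, limma, adjusted p = 0.024) and -0.76 ± 0.20 (1.70-fold, adjusted p = 0.023), and both were lost without the first pull-down or the second input of the miRNA concerned and, for miR-27a, also without pull-down replicate 2 (adjusted p up to 0.13). SARS1, its cytosolic counterpart, changed by -0.07 ± 0.36 and -0.58 ± 0.36 and did not pass in either.

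IARS2, the mitochondrial isoleucyl-tRNA synthetase, rose in both pull-downs and was the only mitochondrial enzyme called higher in both, with or without the block. It read 12.52 and 12.60 in the miR-23b pull-downs and 11.56 and 11.57 in the inputs. It read 12.47 and 12.68 in the miR-27a pull-downs and 11.39 and 11.53 in the inputs. The 4 pull-down arrays stood clear of the 4 inputs. Its log2 change was 0.99 ± 0.14 with miR-23b (1.99-fold, limma, adjusted p = 0.0038) and 1.12 ± 0.14 with miR-27a (2.17-fold, limma, adjusted p = 0.0015). IARS1, the cytosolic enzyme of the multisynthetase complex, changed by 0.08 ± 0.20 and 0.35 ± 0.20, neither of which passed.

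FARSB, the beta subunit of the cytosolic phenylalanyl-tRNA synthetase, rose in both. The miR-23b pull-downs read 14.66 and 14.78 and their inputs 14.19 and 13.60. The miR-27a pull-downs read 14.75 and 14.95 and their inputs 13.79 and 13.90. All pull-downs lay above all inputs, and the miR-23b inputs were the group with the widest spread. The log2 change was 0.82 ± 0.20 with miR-23b (1.77-fold, limma, adjusted p = 0.023) and 1.00 ± 0.20 with miR-27a (2.01-fold, limma, adjusted p = 0.0076). Without input replicate 2 the miR-23b change was 0.53, and that call was also lost without either miR-23b pull-down (adjusted p up to 0.11). With miR-27a it was lost without pull-down replicate 2 (adjusted p = 0.054). FARSA, the alpha subunit of the same enzyme, changed by -0.06 ± 0.24 and -0.20 ± 0.24 and did not pass. FARS2, the mitochondrial phenylalanyl-tRNA synthetase, had values below both inputs in each pull-down, at -0.62 ± 0.26 and -0.48 ± 0.26, and passed in neither without the block (limma, adjusted p = 0.12 and 0.19) and in both with it (0.0037 and 0.0099).

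TARS1, the cytosolic threonyl-tRNA synthetase, rose in both as well. It read 11.74 and 11.69 in the miR-23b pull-downs and 11.12 and 11.20 in the inputs, and 11.76 and 11.99 in the miR-27a pull-downs and 11.03 and 11.25 in the inputs. The groups did not overlap. The log2 changes were 0.56 ± 0.15 (1.47-fold, limma, adjusted p = 0.029) and 0.74 ± 0.15 (1.67-fold, adjusted p = 0.0072). The first was lost without any of the 4 miR-23b arrays (adjusted p up to 0.11) and the second without pull-down replicate 2 of miR-27a (0.053). TARS2, its mitochondrial counterpart, changed by 0.44 ± 0.31 and 0.14 ± 0.31, and was called with the block with miR-23b alone (adjusted p = 0.025).

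NARS1 and QARS1 were called in 1 pull-down each. NARS1, the cytosolic asparaginyl-tRNA synthetase, read 11.10 and 11.04 in the miR-23b pull-downs against 10.18 and 10.25 in the inputs, and 10.49 and 10.96 in the miR-27a pull-downs against 10.32 and 10.40. Both pull-downs lay above both inputs for each miRNA, but the miR-27a pull-downs were spread more widely. It rose by 0.85 ± 0.17 with miR-23b (1.81-fold, limma, adjusted p = 0.011), a call lost without either miR-23b input (adjusted p up to 0.053), and the change with miR-27a was 0.37 ± 0.17 (adjusted p = 0.13, and 0.045 without its pull-down replicate 1). The difference between the miRNAs did not pass (0.49 ± 0.24, limma, adjusted p = 0.62). QARS1, the glutaminyl-tRNA synthetase of the multisynthetase complex, read 12.34 and 12.50 in the miR-23b pull-downs against 12.19 and 11.89 in the inputs, and 11.47 and 11.49 in the miR-27a pull-downs against 12.13 and 11.91. Its miR-23b pull-downs lay above their inputs and its miR-27a pull-downs below theirs. It fell by 0.54 on the log2 scale with miR-27a (SE 0.16, 1.45-fold, limma, adjusted p = 0.030), a call lost without any of the 4 miR-27a arrays (adjusted p up to 0.16). With miR-23b its change was 0.38 ± 0.16 (limma, adjusted p = 0.11, and 0.047 with the block).

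The difference between the log2 changes of QARS1, miR-23b minus miR-27a, was 0.92 ± 0.22, and passed with the replicate block (limma, adjusted p = 0.031) but not without it (0.18). It was the only synthetase gene called for the difference in the blocked fit, 1 of 34 genes or 2.94%, where 4.68% of all genes were called. Without the block 0 of 34 were called against 0.545% of all genes, and 2 of 34 had an unadjusted p under 0.05, against 10.1% of all genes. CARS2, the mitochondrial cysteinyl-tRNA synthetase, named after its values were seen, had the same arrangement as QARS1 at lower values. It read 8.36 and 8.65 in the miR-23b pull-downs against 8.10 and 8.21, and 7.97 and 8.08 in the miR-27a pull-downs against 8.20 and 8.19. QARS1 and CARS2 thus lay above both inputs with miR-23b and below both with miR-27a, which 260 of the 9535 genes did (2.73%). The difference for CARS2 was 0.51 ± 0.21 and did not pass (limma, adjusted p = 0.49).

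**Figure D2:**
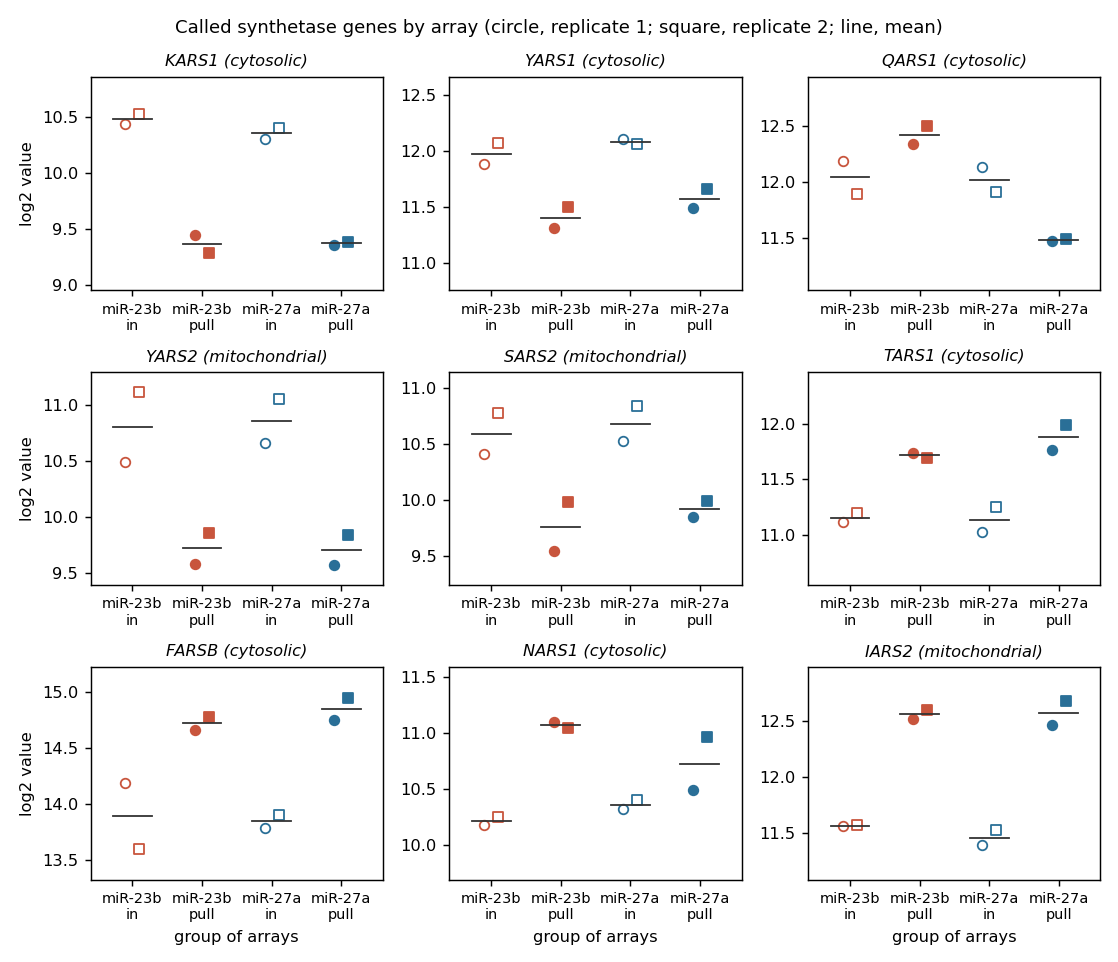
Deposited value (read as log2) of each of the 9 called synthetase genes on each of the 8 arrays, with 1 point per array. Inputs are open and pull-downs filled, with a circle for replicate 1 and a square for replicate 2. A line marks the mean of each group. The points of IARS2, TARS1 and FARSB lie higher in both pull-downs and those of KARS1, YARS1, YARS2 and SARS2 lower, and QARS1 lies above its inputs with miR-23b and below them with miR-27a.

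Neither pull-down called the other 25 genes, 12 cytosolic and 13 mitochondrial, in the test without the block. With miR-23b, LARS1 (0.41 ± 0.31), LARS2 (0.34), CARS2 (0.35), TARS2 (0.44) and QARS1 passed upwards and FARS2 and VARS2 (-0.48) downwards once the replicate number was a block (limma, adjusted p = 0.0037 for FARS2 to 0.047 for LARS1 and QARS1). LARS1 and LARS2 are the cytosolic and the mitochondrial leucyl-tRNA synthetase, and VARS2 the mitochondrial valyl enzyme. With miR-27a, AARS1 (-0.49), SARS1 (-0.58), WARS1 (-0.41), MARS1 (-0.33), FARS2 and VARS2 (-0.40) passed downwards and MARS2 (0.41) upwards in that fit (limma, adjusted p = 0.0099 for FARS2 to 0.031 for MARS1 and VARS2). AARS1, SARS1, WARS1 and MARS1 are the cytosolic alanyl, seryl, tryptophanyl and methionyl enzymes, and MARS2 is the mitochondrial methionyl enzyme. GARS1, the glycyl enzyme of both compartments, changed by -0.18 ± 0.15 and 0.00 ± 0.15. EPRS1 changed by 0.04 ± 0.17 and -0.15 ± 0.17. HARS1, the cytosolic histidyl enzyme, changed by 0.48 ± 0.36 and -0.47 ± 0.36, and the difference of 0.95 ± 0.51 did not pass (limma, adjusted p = 0.67). AARS2, EARS2, HARS2, NARS2, PARS2, RARS1, RARS2, VARS1 and WARS2 passed in neither fit, with changes from -0.37 to 0.37. WARS1 was the only member with more than 1 probe. Its dimmer probe gave -0.05 ± 0.18 and -0.31 ± 0.18, the same directions as the brighter one (-0.01 and -0.41), and was called in neither fit.

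Cytosolic and mitochondrial enzymes held calls in both directions. The cytosolic genes include KARS1 and GARS1, which serve both compartments, and KARS1 is among the cytosolic falls in both pull-downs. Of the 18 cytosolic genes, 3 rose, 2 fell and 13 did not pass with miR-23b, and 2 rose, 3 fell and 13 did not pass with miR-27a (27.8% called in each, against 24.3% and 34.5% of all genes). Among the 16 mitochondrial genes, 1 rose, 2 fell and 13 did not pass in each pull-down (18.8%, against the same shares of all genes). The cytosolic counts differed between the pull-downs through NARS1 and QARS1, and the same 3 mitochondrial genes were called both times. With the block the cytosolic counts were 5 higher and 2 lower with miR-23b and 2 and 7 with miR-27a, and the mitochondrial counts 4 and 4, and 2 and 4. Over all genes the block called 44.7% with miR-23b and 53.4% with miR-27a.

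The medians of the classes lay close to 0 with miR-23b and below 0 with miR-27a. For the cytosolic genes the median log2 change was 0.06 with miR-23b (range -1.11 to 0.85, 10 of 18 above 0) and -0.32 with miR-27a (range -0.99 to 1.00, 12 of 18 below 0). For the mitochondrial genes it was -0.01 (range -1.08 to 0.99, 8 of 16 above 0) and -0.15 (range -1.15 to 1.12, 12 of 16 below 0). The medians over all genes were 0.02 and -0.04. Within replicate numbers 1 and 2 the cytosolic median was 0.12 and 0.09 with miR-23b and -0.35 and -0.22 with miR-27a, and the mitochondrial median 0.01 and 0.10, and -0.17 and -0.07. Leaving out single arrays moved the cytosolic median between -0.10 and 0.26 for miR-23b, and for miR-27a between -0.47 and -0.11. These medians are descriptions, and the difference between the classes was not tested.

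Genes whose pull-downs and inputs did not overlap were counted as well. With miR-23b, 6 of the 34 genes had both pull-downs above both inputs and 8 had both below, where all genes had 32.3% above and 28.9% below. With miR-27a, 6 lay above and 13 below, where all genes had 33.8% and 37.2%. Of the cytosolic genes 4 lay above and 4 below with miR-23b, and 4 and 8 with miR-27a. Of the mitochondrial genes 2 lay above and 4 below, and 2 and 5.

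Set beside each other by amino acid, the 16 pairs of a cytosolic and a mitochondrial gene did not move alike. The cytosolic gene had the higher log2 change in 12 pairs with miR-23b and in 8 with miR-27a. The widest pair in that direction was FARSB with FARS2, where the log2 changes lay 1.44 apart with miR-23b and 1.49 with miR-27a. IARS1 with IARS2 was the widest in the other direction, at -0.91 and -0.76. For tyrosine both genes fell, and YARS1 lay 0.51 and 0.64 above YARS2. EPRS1 and FARS2 each enter 2 of the pairs, and these differences were not tested.

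**Figure D3:**
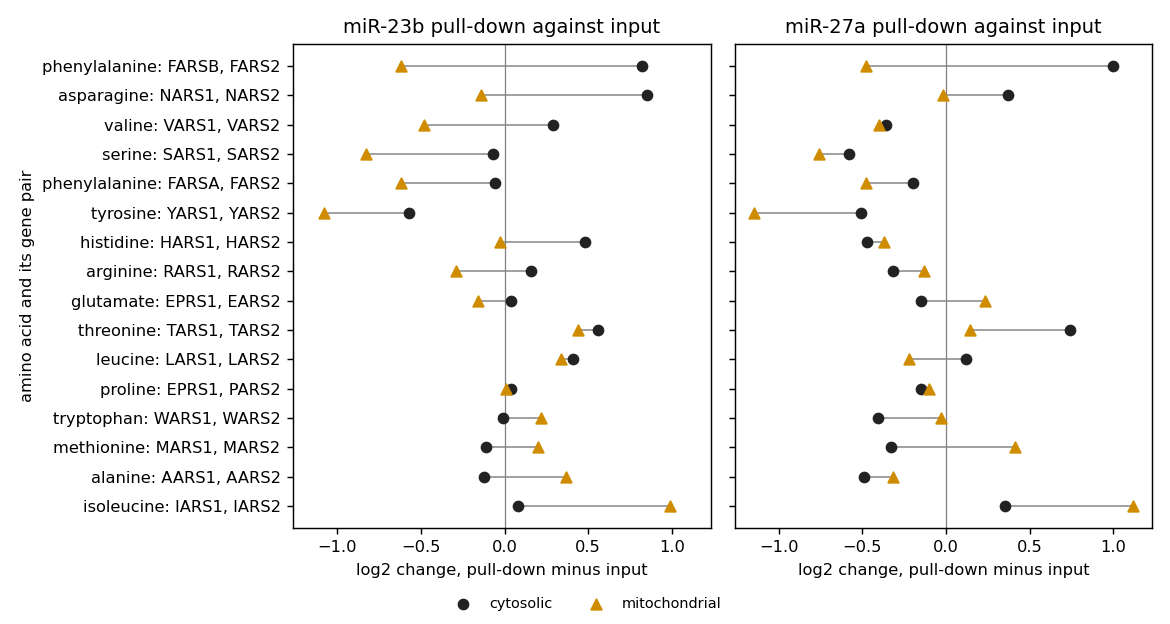
Log2 change, pull-down minus input, of the cytosolic (circle) and the mitochondrial (triangle) gene for each amino acid on the vertical axis, with a line joining the 16 pairs and 1 panel per miRNA. FARSB and FARS2 lie 1.44 and 1.49 apart with the cytosolic subunit higher, and for isoleucine the mitochondrial gene is the higher of the pair in both panels.

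The 7 enzymes of the multisynthetase complex (EPRS1, LARS1, IARS1, MARS1, QARS1, RARS1 and KARS1) had 0 rises and 1 fall with miR-23b and 0 rises and 2 falls with miR-27a, namely KARS1 and then KARS1 with QARS1. The 11 free cytosolic genes had 3 rises and 1 fall, and 2 rises and 1 fall. Among all genes 13.4% and 18.5% were called higher and 10.9% and 16.1% lower. With the block the complex enzymes had 2 rises (LARS1 and QARS1) and 1 fall with miR-23b, and 0 and 3 with miR-27a. The free genes had 3 and 1, and 2 and 4. That fit called 24.5% of all genes higher and 20.2% lower with miR-23b, and 26.4% and 27.0% with miR-27a. The medians were 0.08 and -0.32 for the complex enzymes and -0.01 and -0.36 for the free ones.

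The pull-downs shared most of their calls. Genes called higher in both were TARS1, FARSB and IARS2, 3 of 34, where 9.97% of all genes were, and genes called lower in both were KARS1, YARS1, YARS2 and SARS2, 4 of 34, where 8.32% of all genes were. None was called in opposite directions. Over all 34 genes, 22 had the same sign in both comparisons and 18 had the larger change in size with miR-27a. The 2 comparisons share no arrays, and the correlation of their log2 changes across the 34 genes was 0.75 (Pearson) and 0.58 (Spearman), against a Pearson value of 0.79 over all genes. Genes are not independent replicates, and same-numbered arrays of the pull-downs shifted together, so the values are descriptions.

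**Figure D4:**
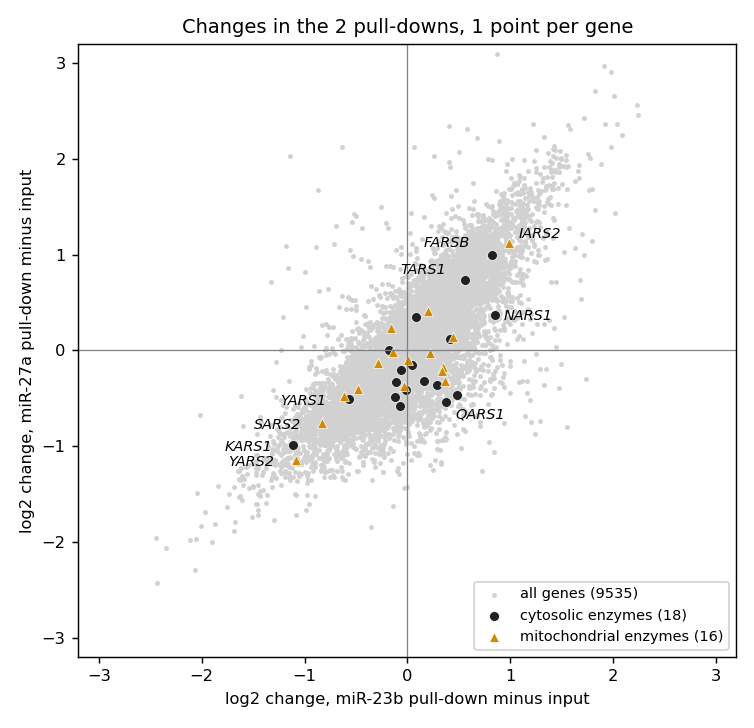
Log2 change of each of the 34 synthetase genes with miR-23b (horizontal axis) and with miR-27a (vertical axis), with 1 point per gene, cytosolic and mitochondrial genes marked apart, and all 9535 genes in grey behind. The 7 genes called in both lie near the diagonal on both sides of 0, and QARS1 lies to the right of 0 and below 0.

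A shift with the replicate number ran through these genes. Replicate 2 read higher than replicate 1 in all 4 groups for 19 of the 34 (55.9%), 9 cytosolic and 10 mitochondrial, where 20.1% of all genes did so. AARS1 is an example, with 10.37 and 11.36 in the miR-23b pull-downs, 10.68 and 11.29 in their inputs, 10.31 and 10.98 in the miR-27a pull-downs and 10.81 and 11.47 in their inputs. Its pull-downs and inputs overlapped for each miRNA, but within replicate numbers the miR-27a change was -0.49 and -0.50. MARS1, NARS2, RARS2 and WARS2 had replicate 2 lower in all 4 groups. Such shifts count as spread in the test without the block, and the labels do not say what the number marks.

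The inputs of the miRNAs did not differ in these genes by the test. Of the 34, 0 were called between the miR-27a and the miR-23b input (limma, and 0 at an unadjusted p under 0.05), with log2 changes of -0.18 to 0.24 and a median of 0.04. Over all genes 0.0% were called and 57 genes (0.598%) had an unadjusted p under 0.05. At 2 arrays a group, a p that misses the threshold does not show equal levels.

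Probe brightness was set against the changes. The Spearman correlation of input level with log2 change across the 34 genes was 0.09 with miR-23b and -0.07 with miR-27a. Across the 16 mitochondrial genes it was -0.44 and -0.36, and across the 18 cytosolic genes 0.17 and 0.19. Over all genes it was -0.1 with miR-23b and -0.14 with miR-27a. All these points share the same arrays. Input values give the level and are also subtracted in the log2 change, so these measures are not independent. PARS2, the mitochondrial prolyl enzyme, was the only member in the dimmest 25% of probes, where a change can be understated.

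Genes that make and modify tRNA changed in both directions too, with more falls than rises. Of 78 listed genes for tRNA processing and modification, 71 had a probe. With miR-23b, 6 rose and 15 fell, 29.6% of the list against 24.3% of all genes (13.4% higher and 10.9% lower). With miR-27a, 8 rose and 22 fell, 42.3% against 34.5% (18.5% higher and 16.1% lower). The list medians were -0.07 and -0.27. The block gave 14 and 22, then 13 and 31, or 50.7% and 62.0% of the list against 44.7% and 53.4% of all genes. TRMT112, the activating partner of several methyltransferases, fell in both, with log2 changes of -1.59 and -1.35 (SE 0.19 for both). TPRKB, a subunit of the complex that makes threonylcarbamoyl-adenosine in tRNA, fell as well (-1.64 and -1.26, SE 0.22), and TSEN34, a subunit of the tRNA splicing endonuclease, likewise (-0.77 and -1.13, SE 0.13). QTRT2, a subunit of the enzyme that places queuine in tRNA, rose by 0.98 and 0.83 (SE 0.16). ADAT1, a tRNA adenosine deaminase, rose by 0.88 and 1.13 (SE 0.15), TRMT10A, a tRNA guanine methyltransferase, rose by 1.14 with miR-27a (SE 0.16), and RPP21, a subunit of ribonuclease P, fell in both (-0.78 and -1.05, SE 0.15). All of these calls held without any single array (limma), apart from QTRT2 with miR-27a and RPP21 with miR-23b, each lost without 1 array at an adjusted p of 0.053. The miR-23b counts were 3 higher and 5 lower without its input replicate 1, 2 and 8 without its input replicate 2, and 4 and 9 without its pull-down replicate 1. The miR-27a counts were 5 and 11 without its pull-down replicate 2. POP5, a subunit shared by ribonucleases P and MRP, was the only gene of the 3 pathway lists called for the difference between the miRNAs without the block (1.29 ± 0.18, limma, adjusted p = 0.034), and that call was lost when any 1 of the 8 arrays was left out (0.085 to 0.18). The 1 call without the block is 1.41% of this list, against 0.545% of all genes in that fit. With the block 6 genes of this list were called for the difference, 8.45% against 4.68% of all genes.

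Of 19 genes on a broad list of charging-related and quality control factors, 13 had a probe. With miR-23b 1 rose and 2 fell (median -0.27), and with miR-27a 2 rose and 3 fell (median -0.32), which is 23.1% and 38.5% of the list against 24.3% and 34.5% of all genes. The block gave 2 and 5, then 3 and 5 (53.8% and 61.5%, against 44.7% and 53.4%). For the difference it gave 1 call, 7.69% of the list against 4.68% of all genes. DTD2, named as a D-aminoacyl-tRNA deacylase, rose by 1.10 ± 0.16 and 0.71 ± 0.16. Its probe was dim in the inputs, at 7.57 (rank 9011 of 9535 genes). PTRHD1, a protein with a peptidyl-tRNA hydrolase fold, fell by 1.15 with miR-23b (SE 0.17), and MTFMT, which formylates the mitochondrial initiator methionyl-tRNA, fell by 0.74 with miR-27a (SE 0.13). ANKRD16, known from mouse as a partner of alanyl-tRNA synthetase, fell by 0.57 with miR-27a (SE 0.16), and PSTK, the kinase of the selenocysteine pathway, fell by 0.46 in both (SE 0.14). The calls of PTRHD1, MTFMT and of DTD2 with miR-23b held without any single array. DTD2 with miR-27a and ANKRD16 each lost theirs without any 1 of 3 arrays. PSTK lost its call with miR-23b without any 1 of the 8 arrays, and with miR-27a without any 1 of 6. The miR-27a counts were 0 rises and 1 fall without its pull-down replicate 1 or input replicate 2, 0 and 2 without its input replicate 1, and 1 and 2 without its pull-down replicate 2 or either miR-23b input.

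Among genes of the ATF4 response to amino acid shortage, 29 of 34 had a probe. With miR-23b 2 rose and 2 fell (median 0.09), and with miR-27a 4 rose and 3 fell (median -0.20), which is 13.8% and 24.1% of the list against 24.3% and 34.5% of all genes. The block gave 7 and 4, then 8 and 7 (37.9% and 51.7%, against 44.7% and 53.4%). For the difference it gave 4 calls, 13.8% of the list against 4.68% of all genes. With miR-23b SLC7A5, a transporter of large neutral amino acids, rose by 0.71 ± 0.16, and EIF4EBP1, an inhibitor of cap-dependent translation, fell by 0.81 (SE 0.18). CEBPB, a transcription factor, fell by 0.77 (SE 0.18). With miR-27a CEBPG, another transcription factor of that family, rose by 1.38 ± 0.22, PSPH, of serine synthesis, rose by 0.67 ± 0.17, and the pseudokinase gene TRIB3 fell by 0.68 (SE 0.13). ATF5, itself a factor of the response, was called in opposite directions, 0.54 in the first pull-down and -0.61 in the second (SE 0.16 for both), and the difference of 1.15 ± 0.23 did not pass without the block (limma, adjusted p = 0.11) and passed with it (0.011). CEBPG and TRIB3 kept their calls without any single array, and the other named genes of this list did not. The total of 4 calls with miR-23b was 0 to 2 when any 1 of its 4 arrays was left out (lowest without its input replicate 2), and the total of 7 with miR-27a was 2 to 4 when any 1 of its own was (lowest without its pull-down replicate 1).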

How the data were processed

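RNA of 8 samples was measured on 1-colour Illumina arrays. The deposited values, read here as log2, were made by the authors with lumi 2.2.1, as the submitters' notes on processing name it. How they were transformed, normalized and filtered is not given in the sources used. If a variance-stabilizing transformation was used, folds of dim probes are understated, so all folds given here are apparent. A deposited non-normalized table was not used, because its 16 signal and detection columns match no sample by name.

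Of 14479 probes, 12008 had 1 gene in the platform annotation, 2 had more than 1 and 2469 were unnamed. The RefSeq table of GRCh38.p14 held the Entrez identifier of 12006 probes and altered 0 symbols. The probe with the highest mean stood for its gene (9535 genes). Group means over all 8 arrays were fitted with limma 3.58.1 in R 4.3.3 (4 residual degrees of freedom), two-sided, with Benjamini-Hochberg adjustment over 14479 probes. Genes with an adjusted p under 0.05 were called higher (rose) or lower (fell). The script was tested on simulated data.

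The differences between replicates 2 and 1 correlated across probes at 0.34 to 0.80 in 6 of 6 pairs of groups. The fit described above had no term for the replicate number. Among the fits, the numbers were treated as pairs only in an alternative with the replicate number as a block. This pairing comes from the values, since the labels state none. Other alternatives were median scaling, quantile normalization, a filter on dim probes, a trend in eBayes, the mean of probes, the 4 arrays of a comparison alone, and single arrays left out, which for the pathway lists was added after the data were seen.

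Members and lists were chosen with earlier results of these data known. All members called in either pull-down or in the difference were named, per-array values were given for the 8 with the smallest adjusted p and for QARS1, and up to 4 called genes of smallest adjusted p were named per list and comparison. Depth has no meaning for arrays, and their number limits the precision.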

Additional observations from a re-analysis of the deposited data

Results flagged for a closer look

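QARS1 was flagged because it was called in a test of the difference between the miRNAs, in the blocked fit alone. Its log2 change with miR-23b minus that with miR-27a was 0.92 ± 0.22. It passed with the replicate number as a block (limma, adjusted p = 0.031) but not without it (0.18). As the only such call it is 2.94% of the 34 genes, where the blocked fit called 4.68% of all genes. Single arrays were not left out in the blocked fit. Both miR-23b pull-downs lay above their inputs and both miR-27a pull-downs below theirs. Groups of 2 arrays were too small to be searched for single arrays that stand apart.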

How the results depend on the processing

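With the replicate number as a block, the called synthetase genes went from 8 to 15 with miR-23b, from 8 to 15 with miR-27a and from 0 to 1 for the difference between the miRNAs. Every synthetase gene called without the block was called with it, and the block changed no synthetase call beyond those given in the report. Fitted to the 4 arrays of the comparison alone, miR-23b had 4 calls (KARS1, NARS1, YARS2 and IARS2, all among the 8). Without single arrays the counts were 2 to 8 with miR-23b, 3 to 8 with miR-27a, and 0 for the difference and the inputs. The medians without single arrays were -0.10 to 0.26 (cytosolic) and -0.07 to 0.07 (mitochondrial) with miR-23b, and -0.47 to -0.11 and -0.20 to -0.09 with miR-27a. Median scaling, quantile normalization, the dim-probe filter, the eBayes trend and the mean of probes kept the same 8 calls in each pull-down. Of 396 values of called genes under alternatives, 346 kept direction and side of the threshold, 35 lost the call and 3 gained one. The remaining 12 changed sign, all of them uncalled differences between the miRNAs with 1 array left out. With single arrays left out these differences ranged from -0.48 to 0.11 for FARSB, from -0.28 to 0.15 for SARS2, from -0.16 to 0.03 for YARS1 and from -0.25 to 0.38 for YARS2. Background correction of raw signals, with the slide as a block, was not run because no column there could be tied to a sample. The signal of a probe over background is therefore unknown.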
